A study of Mus musculus with 12 samples.

Results

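The genes described here encode the receptors for glutamate and GABA: the AMPA, kainate, NMDA and delta subunits of the glutamate-gated channels, the metabotropic glutamate receptors, the subunits of the GABA-A channel and the 2 GABA-B receptor genes. Members were chosen by symbol (Gria, Grik, Grin, Grid, Grm and Gabbr followed by a number, and any symbol starting with Gabr). Of the 14177 genes in the deposited tables, 33 matched. All 33 were listed in the Cre- table, 27 of them also in the shorter Cre+ table, and 31 are receptor subunits. The other 2 carry a matching symbol only: Grin1os is a noncoding RNA antisense to Grin1, and the other encodes a scaffold protein. RNA was sequenced from dorsal root ganglion (DRG) neurons of male mice aged 3 to 6 months by the labels (the study's methods give a younger range), purified on Percoll and cultured for 24 h in F12 medium with serum. In all 4 groups the mice were homozygous for RiboTag (Rpl22HA/HA), an allele in which Cre recombinase switches the ribosomal protein Rpl22 to a form with an HA tag. Mice labelled Cre+ also carried Runx3-Cre, whose driver gene encodes a transcription factor of proprioceptors, the sensory neurons of muscle stretch; littermates labelled Cre- did not. Each genotype gave 3 HA pull-downs, meant to hold the RNA on tagged ribosomes, and 3 inputs of total RNA from 10% of the lysate, with 5 mice pooled for each of the 12 samples. The Cre- pull-downs were the study's control for background.

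Glutamate is the transmitter that DRG neurons release in the spinal cord, and GABA acts on their central terminals to gate that release. AMPA, kainate and NMDA receptors are tetrameric cation channels; NMDA receptors need the Grin1 subunit, and the kainate subunits Grik4 and Grik5 form channels only together with Grik1, Grik2 or Grik3. GABA-A receptors are pentameric chloride channels, most of them built of alpha, beta and gamma subunits, and they depolarize DRG neurons because these cells keep a high chloride concentration. Metabotropic glutamate receptors and the GABA-B receptor, an obligate dimer of the Gabbr1 and Gabbr2 products, act through G proteins.

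The libraries held between 8886308 and 18633365 counts, the Cre- pull-downs being the deepest and the Cre+ pull-downs the shallowest on median. Runx3, which checks the labels, measured 22.7, 2.07 and 11.1 TMM-normalized counts per 1000000 (CPM) in the pull-downs labelled Cre+ against 4.27, 2.39 and 5.55 in their inputs (log2 fold change 1.55, FDR = 0.309). In the pull-downs labelled Cre- it measured 20.7, 35.9 and 51.2 against 4.68, 1.89 and 2.87 (log2 fold change 3.52, FDR = 0.000236). The difference between the labels, Cre+ minus Cre-, was -1.94 for Runx3 and did not pass the test (FDR = 0.302). Of 6 proprioceptor markers tested for this difference, 5 had negative values and 1, Ntrk3, a positive one (0.16). Spp1 (-3.60, FDR = 0.00258) and Etv1 (-2.41, FDR = 0.0159) were called lower, so 2 of 6 beside 2% of all genes, and 0 higher beside 2.3%. Ntrk3, the neurotrophin receptor of proprioceptors, was called higher in the pull-downs under both labels (2.19 in Cre+ and 2.05 in Cre-). The driver gene was thus called where the label names no Cre and not where it does, and Cre+ and Cre- below refer to the labels as deposited, with no statement on which libraries hold tagged ribosomes. Of the proprioceptor markers tested, 6 of 8 were called higher in the Cre- pull-downs and 1 of 6 in the Cre+ pull-downs; of all genes tested, 6.01% were called higher and 5.83% lower in Cre-, and 4.72% and 2.19% in Cre+. The summed glial markers were lower in the pull-downs than in the inputs. They stood at 1259 to 1665 against 2765 to 4275 CPM in Cre- and at 1640 to 2265 against 2411 to 3701 in Cre+. Most of the sum in the Cre+ inputs was Pmp22 (3140, 2121 and 2106). Of the glial markers tested, 3 of 8 were called lower in Cre- and 0 of 6 in Cre+. S100b had a positive log2 fold change in Cre- (0.69) and Sox10 in Cre+ (0.22). The summed pan-neuronal markers, mostly neurofilament genes and Snap25, stood at 49072 to 56587 in the Cre- pull-downs against 24366 to 29224 CPM in the inputs. In Cre+ they stood at 22641 to 24796 against 21226 to 27766. Of 12 genes, 3 were called higher in Cre- and 2 lower in Cre+. Negative log2 fold changes were found for 5 of the 12 in Cre- and 6 in Cre+. Markers of other sensory neurons summed to 1568 to 2328 in the Cre- pull-downs against 3081 to 3415 in the inputs, with 4 of 12 called lower, and to 2671 to 3444 against 3209 to 3441 in Cre+, with 1 of 11 called lower. Cre+ pull-down library 1 stood apart, with summed endothelial markers at 561, against 118 and 156 in the other Cre+ pull-downs and 51.6 to 96.0 in the Cre+ inputs.

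Per length of exon, the receptor genes spanned a wide range of levels in the inputs. Gabbr1, the GABA-B subunit that binds GABA, stood at 35.8 ± 2.99 CPM per kb of exon in the Cre- inputs (SD, n = 3) and at 34.1 ± 4.65 in the Cre+ inputs. Grin1os stood at 15.6 ± 3.82 in Cre- and 11.8 ± 1.52 in Cre+ inputs, and Gabbr2, the GABA-B subunit that couples to the G protein, at 14.7 ± 3.21 and 13.1 ± 2.51. Grin1os and Gabbr2 did not differ from each other beyond their spread, and every library of theirs lay below every library of Gabbr1 under both labels. Grin1os shares 45.2% of its exon length with Grin1 on the opposite strand. Whether the counting used strand is not stated, so its level may include reads of Grin1. Grin1 had 9.16 ± 1.09 in the Cre- inputs and 7.54 ± 0.778 in the Cre+ inputs. Its libraries lay below those of Gabbr2 and Grin1os and overlapped those of the kainate subunit Grik1 (8.33 ± 3.34 in Cre-). Low levels in the Cre- inputs were those of Gabra4 (0.0906 ± 0.0727) and Gabrb1 (0.203 ± 0.158). Among AMPA subunits, Gria4 had the highest mean level per length in the inputs (5.58 ± 1.08 in Cre-) and Gria2, the subunit whose edited form blocks calcium entry, the lowest (0.875 ± 0.238). The level of Gria2 rests on an exon length of 15548 bases, the sum of all annotated exons.

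**Figure D1:**
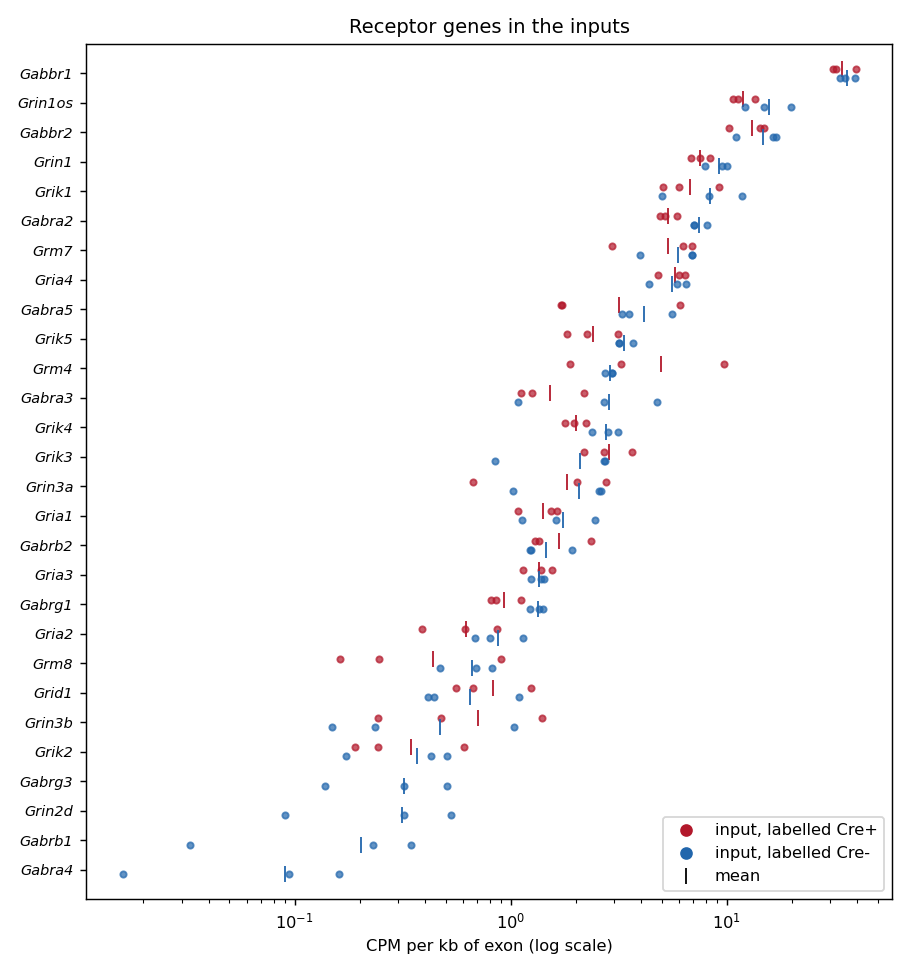
Input level of receptor genes in CPM per kb of exon (log scale), with 1 point for each of the 3 inputs under each label and a tick for the mean. Gabbr1 is highest of the genes plotted and Gabra4 lowest; the genes without red points were listed in the Cre- table only.

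Of the 33 genes, 25 passed the filter on the authors' mean FPKM (above 1) in the Cre+ table and 28 in the Cre- table. Grin1os passed under both labels and is included wherever receptor genes are counted, while the scaffold gene did not pass. In the Cre+ pull-downs, 1 of 25, the kainate subunit Grik3, was called higher than input at FDR below 0.1 and a 2-fold change, a share of 4% beside 4.72% of all genes tested. None of 25 was called lower, beside 2.19% of all genes (0 of 25 also at an unadjusted p under 0.05, and 0 by DESeq2 and by edgeR's exact test). In the Cre- pull-downs, 5 of 28 were called higher (17.9%, beside 6.01% of all genes): the AMPA subunit Gria3, the kainate subunit Grik2, the metabotropic receptor Grm8 and the GABA-A subunits Gabrb2 and Gabrg1. None of 28 was called lower, beside 5.83% of all genes; 3 had lower values at an unadjusted p under 0.05, and DESeq2, the exact test and the fit with a replicate block each called 1, Gria1. A pull-down can differ from input through which cells hold tagged ribosomes, the RNA on their ribosomes or background RNA. These cannot be told apart here.

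Across the genes that passed the filter, called or not, log2 fold changes leaned towards the pull-downs under both labels. Their median log2 fold change was 0.63 in Cre+, beside 0.08 over all genes tested, and 0.49 in Cre-, beside -0.04. In Cre+, 21 of 25 had a positive log2 fold change, beside 53.0% of all genes tested, and in Cre-, 20 of 28, beside 47.5%. The summed levels of the pan-neuronal and proprioceptor markers were also higher in each Cre- pull-down than in any Cre- input, and those of the proprioceptor markers in Cre+ too (532, 355 and 391 in the pull-downs against 263, 247 and 189 CPM in the inputs). In Cre+ that sum was carried by Ntrk3 (341, 261 and 258 against 49.9, 72.8 and 66.0), while Spp1 (-0.95) and Calb1 (-1.93) had negative log2 fold changes. Of the 12 pan-neuronal markers, 5 had negative log2 fold changes in Cre-, among them Rbfox3 (-0.76) and Tubb3 (-0.35). The summed endothelial markers were also higher in each Cre+ pull-down (561, 118 and 156) than in any Cre+ input (51.6, 70.5 and 96.0 CPM). Of these markers, 2 of 5 were called higher in Cre+ and 0 of 4 in Cre-. The markers' part in the receptor genes' values was not tested. With scaling by library size alone the median over all genes moved to -0.36 in Cre+ and -0.27 in Cre-, and the receptor genes then had medians of 0.21 and 0.24, with 17 of 25 and 18 of 28 positive beside 36.3% and 33.3% of all genes. The lowest pull-down exceeded the highest input for 5 of 25 genes in Cre+ (20%, beside 15.5% of all genes) and for 11 of 28 in Cre- (39.3%, beside 18.2%). The reverse held for 0 of 25 in Cre+ (beside 17.9%) and for 2 of 28 in Cre-, among them Grik4 (7.14%, beside 18.6%). Longer genes had higher log2 fold changes in these tables (Spearman 0.46 across 8599 genes in Cre+ and 0.32 across 11040 in Cre-, as a description, since genes share their libraries). The receptor genes were longer than the rest, with median exon lengths of 6.54 and 6.70 kb beside 5.20 and 4.59 kb, and the part of length in their medians was not tested.

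**Figure D2:**
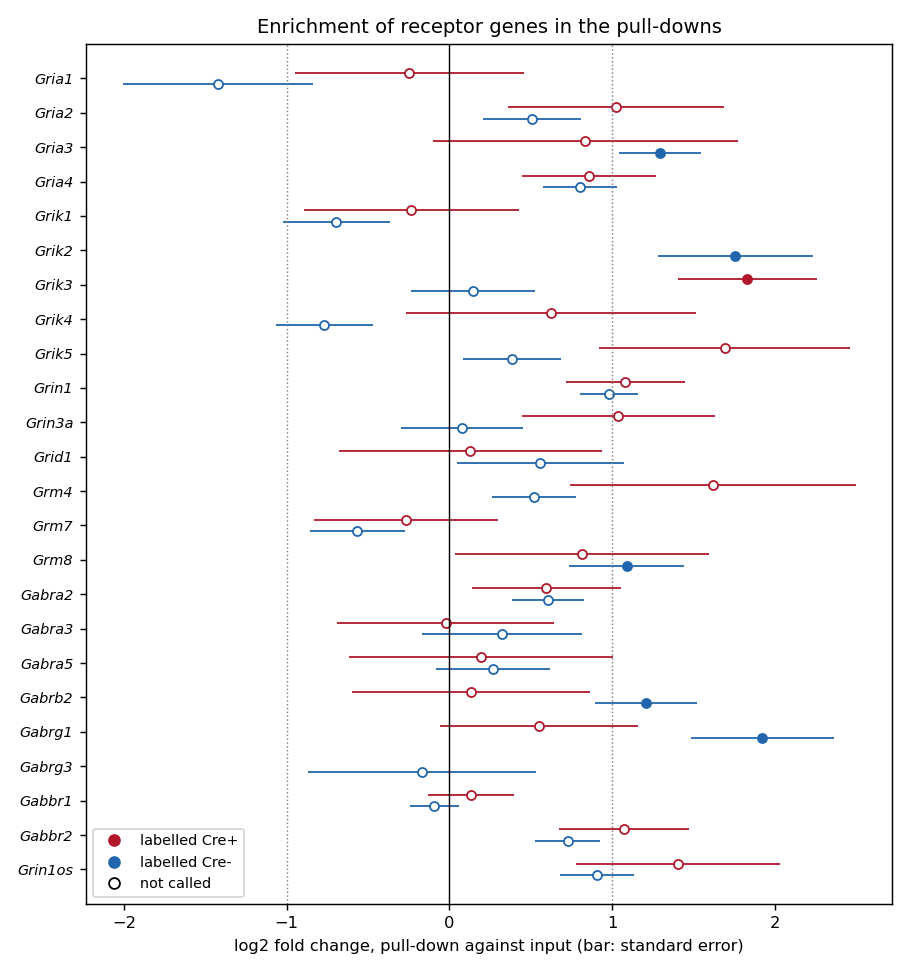
Log2 fold change of pull-down against input for receptor genes that passed the filter (horizontal axis; bars are standard errors), red for Cre+ and blue for Cre-, with filled points for called genes and dotted lines at a 2-fold change. Most points lie right of 0 under both labels; Grik3 is the filled red point, and Gria3, Grik2, Grm8, Gabrb2 and Gabrg1 are the filled blue ones.

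Of the 4 AMPA subunits, 0 were called higher in Cre+ and 1, Gria3, in Cre-, beside 4.72% and 6.01% of all genes tested. Gria3 measured 29.7, 38.3 and 30.3 CPM in the Cre- pull-downs against 12.3, 14.1 and 13.7 in the inputs. The groups were far apart relative to their spread (log2 fold change 1.30, SE 0.25, FDR = 0.00452), and the call was kept without any 1 of the 6 libraries but lost with all 12 libraries in 1 fit (1.27, FDR = 0.432). In the Cre+ pull-downs Gria3 measured 2.44, 55.3 and 14.0 against 13.6, 15.3 and 11.3, the widest spread of any receptor gene there, and its log2 fold change of 0.83 (SE 0.94) turned to -0.68 without library 2. Gria4, whose subunit gives channels with fast kinetics, measured 49.2, 71.2 and 64.0 against 37.2, 27.6 and 40.8 in Cre- (0.80, FDR = 0.0313) and 79.8, 58.7 and 57.7 against 30.4, 40.2 and 37.7 in Cre+ (0.86, FDR = 0.241). It stayed under the 2-fold limit with every pull-down above every input under both labels. Gria2 had log2 fold changes of 1.02 in Cre+ and 0.51 in Cre-, with overlapping libraries under both labels. Gria1 had a negative log2 fold change in Cre- that did not pass the test (-1.42, SE 0.59, FDR = 0.119). It measured 7.89, 1.55 and 2.22 in the Cre- pull-downs against 6.83, 9.78 and 14.9 in the inputs. Pull-down library 1 overlapped the inputs, and without it Gria1 was called lower (-2.46, FDR = 0.0038), as it was with the replicate number as a block (-1.74, FDR = 0.0928). In Cre+ its log2 fold change was -0.25 (SE 0.70).

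Of the kainate subunits, Grik3 was called in Cre+ and Grik2 in Cre-; the difference between labels passed the test for neither (FDR = 0.151 and 0.207). Grik3, on chromosome 4 (GRCm38 chr4:125490259-125714173), measured 68.8, 92.2 and 111 in the Cre+ pull-downs against 24.2, 19.6 and 32.7 in the inputs. Every pull-down was above every input by at least 2-fold (log2 fold change 1.83, SE 0.43, FDR = 0.0622). The FDR rose above 0.1 when any 1 Cre+ input was left out (0.264, 0.221 and 0.182) or Cre+ pull-down 3 (0.101), while the log2 fold change stayed between 1.67 and 2.05. In the 3 fits without an input, 7, 59 and 4 of all 8947 genes were called higher, against 422 with all libraries. In Cre- the same gene measured 19.1, 21.8 and 21.3 against 7.61, 24.2 and 24.4, a log2 fold change of 0.14 (SE 0.38). Grik2, on chromosome 10 (chr10:49093680-49790161), measured 8.61, 17.1 and 24.0 in the Cre- pull-downs against 6.73, 2.30 and 5.66 in the inputs (1.76, SE 0.47, FDR = 0.0242). Pull-down 1 was close to the inputs, and the call was lost without pull-down 3 (FDR = 0.105) and with all 12 libraries in 1 fit (1.73, FDR = 0.166). In Cre+ Grik2 was too low to pass the filter, at 2.55, 2.56 and 4.96 in the pull-downs against 2.53, 3.22 and 8.02. Of the subunits that need these partners, Grik5 had pull-downs of 7.88, 41.7 and 70.6 against inputs of 9.42, 11.6 and 16.2 in Cre+ (1.69, SE 0.77, FDR = 0.22). Library 1 lay below the inputs and the others above them, and without it Grik5 was called (2.22, FDR = 0.0287). Grik4 had a log2 fold change of 0.63 (SE 0.89) in Cre+, where library 1 was again lowest (3.00 against 9.50 and 42.6). In Cre- every Grik4 pull-down (10.7, 8.36 and 10.0) lay below every input (14.1, 16.8 and 18.6), with a log2 fold change of -0.77 and an FDR of 0.0987, short of the 2-fold limit. Grik1, the most abundant kainate gene per length in the inputs, measured 65.3, 40.5 and 9.58 in the Cre+ pull-downs against 61.5, 40.6 and 33.9, and 47.4, 33.2 and 23.0 in the Cre- pull-downs against 78.5, 55.7 and 33.7. The libraries overlapped, with negative log2 fold changes under both labels (-0.24, SE 0.66 in Cre+; -0.69, SE 0.33 in Cre-) that did not pass the test.

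**Figure D3:**
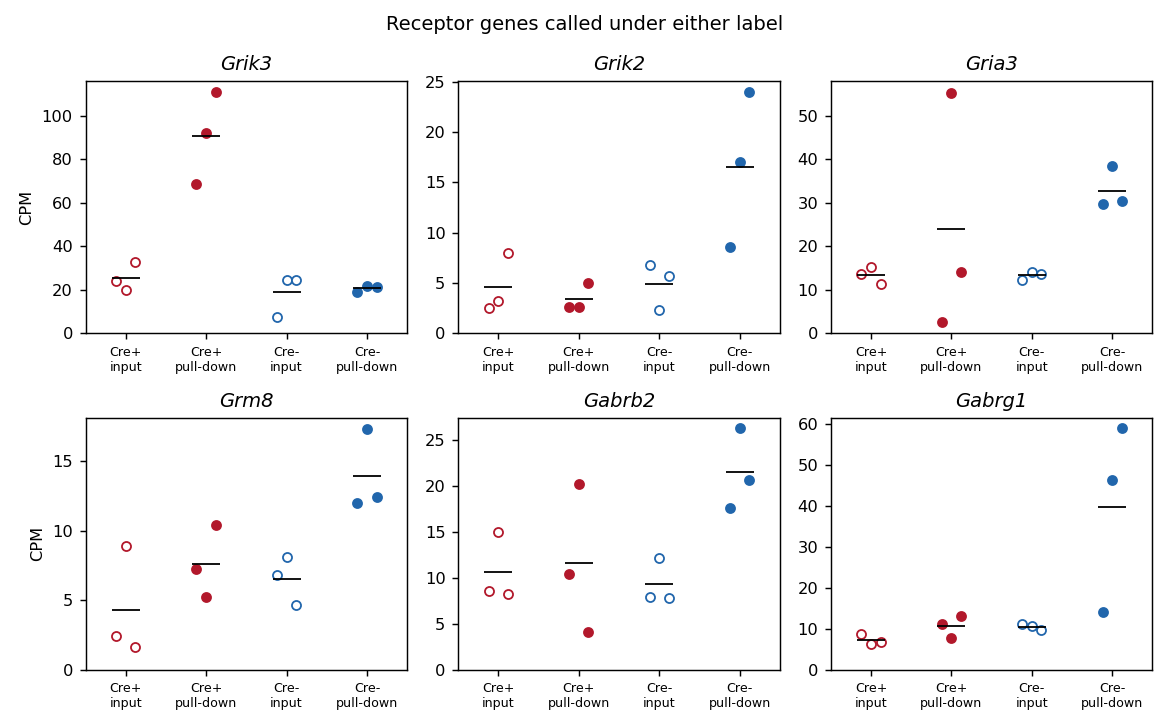
CPM of the 6 called receptor genes in each library (points; open for inputs, filled for pull-downs, red for Cre+ and blue for Cre-), with the mean of each group as a line; vertical axes start at 0 and differ between panels. Grik3 is raised in the Cre+ pull-downs and not in the Cre- pull-downs, and the other genes are raised in the Cre- pull-downs, where Gabrg1 and Grik2 have 1 low library each. The difference between the labels passed the test for none of the 6 genes.

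Of the NMDA subunits, Grin1 was called under neither label, with a difference between labels that did not pass the test (0.13, SE 0.38, FDR = 0.88). It measured 174, 202 and 150 in the Cre- pull-downs against 91.9, 77.1 and 97.6 in the inputs (log2 fold change 0.98, SE 0.18, FDR = 0.00292). The value missed the 2-fold limit narrowly, and with 1 library left out it passed in 4 of 6 fits. In Cre+ it measured 225, 113 and 126 against 72.8, 65.8 and 80.9 (1.08, SE 0.36, FDR = 0.125). Every pull-down lay above every input under both labels, and the FDR in Cre+ was below 0.1 by DESeq2 (0.0397) and by the exact test (0.0856). Grin1os, whose exons overlap those of Grin1 over 45.2% of their length on the opposite strand, measured 82.5, 101 and 69.8 in the Cre- pull-downs against 57.0, 43.1 and 35.2 (0.91, FDR = 0.0163). In Cre+ it measured 171, 75.9 and 24.6 against 31.0, 39.2 and 32.4 (1.41, SE 0.63, FDR = 0.211), with 0.59 without library 1. Whether the counting used strand is not stated, so reads of Grin1 and Grin1os in the shared exons may be split between them. Grin3a, a subunit that lowers calcium permeability, measured 44.3, 45.0 and 47.8 in the Cre+ pull-downs against 8.20, 33.7 and 24.8 (1.04, SE 0.59, FDR = 0.317). In Cre- its log2 fold change was 0.08 (SE 0.38), with overlapping libraries. Grin3b (22 to 63 counts in the Cre+ pull-downs and 36 to 47 in the Cre- pull-downs) shares 32.1% of its exon length with an antisense gene and did not pass the FPKM filter. Grin2d, the only Grin2 subunit gene listed, had 7, 6 and 2 counts in the Cre- pull-downs against 36, 26 and 8 in the inputs, below the filter.

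The delta subunits are relatives of the AMPA channels that act as synaptic organizers. Grid1 had log2 fold changes of 0.13 (SE 0.81) in Cre+ and 0.56 (SE 0.51) in Cre-, with overlapping libraries.

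The metabotropic receptors listed were Grm4, Grm7 and Grm8, all of the group that couples to inhibitory G proteins and sits mainly on presynaptic terminals. Grm8 measured 12.0, 17.3 and 12.5 in the Cre- pull-downs against 6.83, 8.14 and 4.68 in the inputs (1.09, SE 0.35, FDR = 0.053). Every pull-down lay above every input, but the gene stood close to both limits. Its call was lost without input 1 (FDR just above 0.1), input 3 (0.177) or pull-down 2 (0.199). It was also lost with library size alone (0.85, FDR = 0.111) and with all 12 libraries in 1 fit (1.06, FDR = 0.437). In Cre+ Grm8 measured 7.21, 5.24 and 10.4 against 2.44, 8.90 and 1.60 (0.82, SE 0.78). Grm4 measured 211, 24.6 and 36.1 in the Cre+ pull-downs against 57.8, 11.3 and 19.3 (1.62, SE 0.88, FDR = 0.295). Library 1 was the highest of both fractions: the log2 fold change was 0.08 without pull-down 1 and 2.56 without input 1. In Cre- the Grm4 libraries were tight and did not overlap (24.6, 29.1 and 20.5 against 17.7, 17.7 and 16.4), with a log2 fold change of 0.52 and an FDR of 0.194. Grm7 had negative values under both labels (-0.27, SE 0.56 in Cre+; -0.57, SE 0.29 in Cre-) and overlapping libraries.

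GABA-A subunit genes lie in clusters on several chromosomes. On chromosome 5 lie Gabrg1 (chr5:70751047-70842617), Gabra2 (chr5:70958392-71095849), Gabra4 and Gabrb1. Gabrg1, a gamma subunit, measured 14.1, 46.4 and 59.0 in the Cre- pull-downs against 11.1, 10.7 and 9.66 in the inputs. This was the largest log2 fold change of any receptor gene in Cre- (1.92, SE 0.44, FDR = 0.0123), with pull-down 1 only slightly above the inputs. It was called in all 6 fits with 1 library left out (1.55 to 2.35). In Cre+ Gabrg1 measured 11.2, 7.80 and 13.0 against 8.81, 6.38 and 6.72 (0.55, SE 0.61). Its neighbour Gabra2 measured 66.4, 76.4 and 115 against 53.6, 62.1 and 54.0 in Cre- (0.60, FDR = 0.0823) and had the same log2 fold change of 0.60 in Cre+ (SE 0.46). Gabra4 had 0 to 12 counts in the Cre- pull-downs and 1 to 13 in the inputs, and Gabrb1 had 5 to 27 against 6 to 49; both were below the filter.

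Gabrb2, a beta subunit gene on chromosome 11 (chr11:42419515-42632591), measured 17.6, 26.3 and 20.7 in the Cre- pull-downs against 7.90, 12.2 and 7.85 in the inputs (1.21, SE 0.31, FDR = 0.0199). It was called in all 6 fits with 1 library left out, but not with library size alone (0.97, under the 2-fold limit) or with all 12 libraries in 1 fit (FDR = 0.308). In Cre+ its libraries overlapped (10.4, 20.2 and 4.15 against 8.55, 15 and 8.20). On chromosome 7, Gabra5 had log2 fold changes of 0.19 (SE 0.81) and 0.27 (SE 0.35) in Cre+ and Cre-, and Gabrg3 of -0.17 (SE 0.70) in Cre-. Gabra3, on the X chromosome, had -0.02 (SE 0.67) and 0.32 (SE 0.49). None of these 3 genes had separate groups.

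The GABA-B genes are both needed for the receptor. Gabbr1 measured 351, 242 and 278 in the Cre+ pull-downs against 306, 241 and 248, and 264, 286 and 233 against 303, 273 and 258 in Cre-. Its log2 fold changes of 0.13 (SE 0.27) and -0.09 (SE 0.15) were within the spread of the libraries. Gabbr2 measured 138, 184 and 168 against 73.8, 109 and 113 in Cre- (0.73, SE 0.20, FDR = 0.0256), with every pull-down above every input. In Cre+ it measured 93.2, 224 and 237 against 68.6, 95.2 and 99.5 (1.07, SE 0.40, FDR = 0.153), and was called without library 1 (1.43, FDR = 0.0235). A test between these genes was not made.

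Whether enrichment differed between the labels was tested as the difference of the log2 fold changes, Cre+ minus Cre-, over all 12 libraries. None of 26 receptor genes was called higher, beside 2.3% of all 9006 genes, and none lower, beside 2%. At an unadjusted p under 0.05 there were 2, 1 in each direction. Grik3 had the largest positive difference (1.72, SE 0.60, FDR = 0.151) and Grik2 the largest negative one (-2.17, SE 0.89, FDR = 0.207). Grik3 was called by DESeq2 (FDR = 0.044) and, without Cre+ pull-down 1, by edgeR (1.90, FDR = 0.0542), together with Grik4 (1.94, FDR = 0.0904) and Grik5 (1.84, FDR = 0.0494). Those fits called 614 and 632 of all 9006 genes higher, against 207 with edgeR and all libraries. Without Cre+ pull-down 3 the difference of Grik4 was -0.12. Gabrg1 and Gabrb2, called in Cre- and not in Cre+, had differences of -1.34 (SE 0.71, FDR = 0.318) and -1.04 (SE 0.78, FDR = 0.483), and Gria3 and Grm8 of -0.42 (SE 1.02) and -0.25 (SE 0.87). None of these differences passed the test, so the calls in Cre- were not shown to be particular to that label. The smallest absolute differences were those of Gabra2 (0.03, SE 0.48), Gabra5 (-0.04, SE 0.91) and Gria4 (0.08, SE 0.42).

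**Figure D4:**
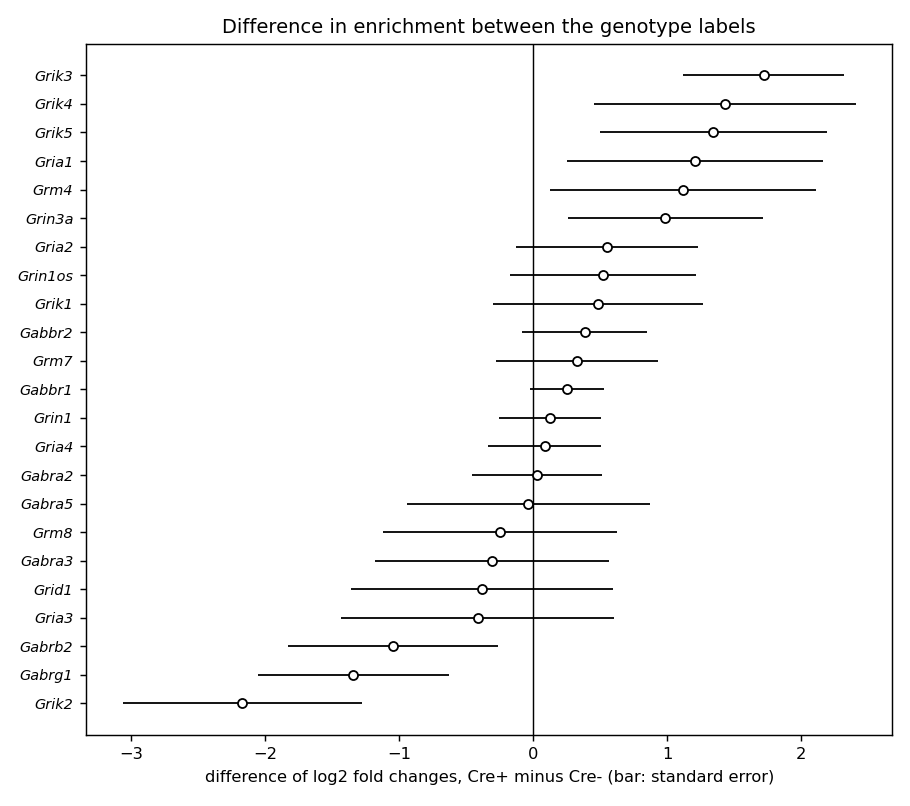
Difference of log2 fold changes, Cre+ minus Cre-, for receptor genes tested (points; bars are standard errors). Grik3 lies at 1.72 and Grik2 at -2.17, and no gene was called.

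The Cre+ pull-downs varied more among themselves than the Cre- pull-downs. The median ratio of the highest to the lowest Cre+ pull-down was 2.54 over the receptor genes tested and 2.97 over all genes, against 1.57 and 1.55 in the Cre- pull-downs. The ratio exceeded 5 for 7 of the 25 receptor genes (28%, beside 29.8% of all genes). Library 1 was the highest for Grm4 and Grin1os and the lowest for Gria3, Grik4 and Grik5. The same library had the highest summed endothelial markers (561), in which Pecam1, an endothelial adhesion molecule, measured 255 against 20.2 and 17.8 in the other Cre+ pull-downs, and the highest macrophage markers (112 against 16.8 and 4.85). Their part in these values was not tested. Without library 1, 4 of 25 receptor genes were called higher in Cre+ (among them Grik3, Grik5 and Gabbr2), in a fit that called 803 of 8947 genes higher. Cre- pull-down 1 also held more endothelial signal (143 against 21.3 and 25.3), and without it 6 of 28 receptor genes were called higher and 1 lower in Cre-, in a fit that called 817 of all 11526 genes higher and 1060 lower, against 693 and 672 with all libraries.

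Proteins that work with these receptors were read from lists of 57 genes. In Cre+, 0 of 34 tested were called higher and 1 lower, beside 4.72% and 2.19% of all genes tested (at an unadjusted p under 0.05, 3 of the 34 had higher and 5 lower values). In Cre-, 4 of 40 were called higher and 2 lower, beside 6.01% and 5.83% (11 of the 40 had higher and 6 lower values without adjustment). The shares given belong to the calls, and none was computed for the unadjusted limit. Cacng5, an auxiliary subunit of AMPA receptors, measured 34.2, 46.5 and 67.5 in the Cre- pull-downs against 6.15, 11.8 and 5.36 (2.67, FDR = 0.000458). Dlg2, a scaffold of NMDA receptors, measured 528, 499 and 593 against 287, 185 and 164 (1.35, FDR = 0.000896). Both genes had every pull-down well above every input. Slc1a1, a neuronal glutamate transporter, had a log2 fold change of 1.98 (FDR = 0.0102) and Slc17a7, the vesicular glutamate transporter VGLUT1, of 1.37 (FDR = 0.00131). Cnih2, an AMPA receptor export factor, was called lower in Cre- (-1.90, FDR = 0.0156). Gabarap, a GABA-A receptor trafficking protein that also acts in autophagy, was called lower under both labels: it measured 87.9, 90.0 and 71.5 in the Cre+ pull-downs against 296, 168 and 178 (-1.36, FDR = 0.0664) and 104, 85.1 and 91.1 against 213, 166 and 201 in Cre- (-1.05, FDR = 0.00145). Of 35 partner genes tested for the difference between labels, 3 were called lower and 0 higher, beside 2% and 2.3% of all genes tested. The 3 were Dlg2 (-1.19, FDR = 0.082), Slc17a7 (-1.86, FDR = 0.069) and Gabarapl2, a relative of Gabarap (-2.93, FDR = 0.062). Slc17a7 measured 138, 219 and 245 in the Cre- pull-downs against 70.6, 72.9 and 89.0, and 78.4, 43.9 and 34.5 in the Cre+ pull-downs against 92.4, 60.7 and 70.9.

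RefSeq lists 49 mouse genes whose symbol matches the rule, and 16 of these symbols were listed in neither table. Among them were Grin2a, Grin2b and Grin2c and the metabotropic receptors Grm2, Grm3, Grm5 and Grm6. The GABA-A delta, epsilon, pi, theta and rho subunits and Gabra6 were also among them. Each gene of the Cre+ table had at least 5 counts in every library, so a gene low in 1 library is not in it.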

How the data were processed

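RNA-seq of 12 libraries was analysed from deposited tables, 1 for each genotype label. The authors aligned reads to mm10 with STAR, counted fragments per refSeq gene with HTSeq from uniquely mapped reads and deposited the raw counts, with a mean FPKM over the libraries of a table that the authors computed. The submitters' processing notes name CASAVA 1.8.2 and edgeR. The tables also hold the authors' fold changes, p-values, FDR and normalized values, and 18 columns of normalized values per sample were not used. The labels and the methods name different library kits.

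Libraries were grouped by genotype and fraction. The Cre+ pull-down columns were assigned as a group, because their names also resemble Cre- titles, and their numbers only tell libraries apart. Each sample pooled 5 mice; by the methods each input was part of a pull-down's lysate, but no source used here says that equal numbers mark the same lysate, so the tests were unpaired, and p-values measure the spread between these samples.

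Counts were fitted with edgeR 4.0.16 (R 4.3.3, limma 3.58.1) with TMM scaling and robust quasi-likelihood tests over genes with a mean FPKM above 1. FDR is the Benjamini-Hochberg adjusted p over all genes tested (8947 in Cre+, 11526 in Cre-, 9006 for the difference, an interaction over 12 libraries). Calls needed FDR below 0.1 and a 2-fold change. Counts at an unadjusted p under 0.05 stand without a share of all genes at that limit, which was not computed. CPM values were TMM-scaled within each table. Lengths are unions of GENCODE M21 exons; RefSeq gave the coordinates (GRCm38, the assembly of mm10). The script was tested on simulated data with 200 genes changed by a log2 of 2 to 3 in either direction. It recovered 56% of them in Cre+, 96% in Cre- and 45% in the difference. False calls numbered 11, 15 and 15. Changes of this size can thus be missed in Cre+ and in the difference more often than in Cre-. Alternatives were DESeq2 1.42.0, edgeR's exact test, other scalings, filters and limits, all libraries in 1 fit, a replicate block and each library left out; the fit without the robust option was added after seeing the data. Members and lists were chosen with earlier results of these data known. Counts cover every member, and some members are not reported here by name; the text gives per-library values for those called and, where reported by name, for the 5 with the highest input level per length, and adds those partners that were called. Figures were drawn with matplotlib 3.10.9.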

Additional observations from a re-analysis of the deposited data

How the results depend on the processing

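The receptor genes called higher in Cre+ (1) numbered 5 with DESeq2, 2 with the exact test, 5 with all 12 libraries in 1 fit and 0 at FDR below 0.05, and 0 to 4 with 1 library left out. Those called higher in Cre- (5) numbered 3 with library size alone, 10 with no fold limit and 1 with all 12 libraries in 1 fit, and 4 to 6 with 1 library left out. Those called lower in Cre- (0) numbered 1 with DESeq2, with library size alone, with no fold limit and with the exact test, where 718, 1238, 1284 and 800 of all 11526 genes were called lower against 672, and 0 to 1 with 1 library left out. Calls over all genes moved as well: in Cre- 693 genes were called higher in the test used, 429 with library size alone, 1502 with no fold limit and 269 of 8889 with all 12 libraries, where 26 receptor genes were tested and Gria3, Grik2, Grm8 and Gabrb2 were not called (FDR = 0.432, 0.166, 0.437 and 0.308). Library size alone lost Grm8 and Gabrb2. The difference (0 higher) gave 1 with DESeq2 and 0 to 3 with 1 library left out, where all genes called higher numbered 614 with DESeq2 and 632 without Cre+ pull-down 1, the fit that gave 3, against 207. All genes called higher in Cre+ ranged as widely, with 422 in the test used, 1103 with DESeq2, 794 with the exact test and 1252 with all 12 libraries. The cause was not tested. Filters of 10 counts in 3 libraries or none, and the fit without the robust option, kept the counts of 1, 5 and 0.

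In Cre-, deviations of a pull-down and the input of the same number correlated at 0.063, 0.026 and 0.120 across genes, not all above 0.1, and no source ties equal numbers to 1 lysate, so the numbers were not taken as pairs. With the replicate block, 5 receptor genes were called higher and 1 lower, Gria1 (-1.74, FDR = 0.0928), and 792 genes were called lower in all, against 672. Each pull-down correlated best with its own number. No paired fit was made in Cre+, because its pull-down columns were assigned to their group and not to single samples. The Cre+ pull-downs were the shallowest libraries on median and varied most.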
